A study of Rattus norvegicus with 6 samples.

Results

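The genes described here form the canonical Wnt and β-catenin program of the brain endothelium. They were chosen by symbol, and comprise the receptor genes Fzd4, Lrp5, Lrp6 and Adgra2, the feedback genes Axin2, Nkd1 and Apcdd1, and the nuclear factor genes Lef1, Tcf7 and Sox17. All 10 had a row among the 33566 genes of the deposited count table, and all 10 held enough reads to be tested. RNA was sequenced from primary rat brain microvascular endothelial cells (rBMECs), the cells that line brain capillaries and form the blood–brain barrier. Homocysteine (Hcy), a sulphur amino acid of the methionine cycle, was given for 24 h to the cells of 3 libraries, and 3 Veh libraries came from cells given the water that served as its vehicle. The question was how Hcy exposure alters the RNA of these cells. The cells of both groups came from SD rats 18 to 22 days of age, from the cerebral cortex per the labels and the forebrain per the study's methods, were purified in culture with a screening solution, were kept in medium with endothelial growth supplements and were used after a single passage. The labels give a dose of 100 μM and also name a prepared Hcy solution of 50 μM. The study's methods name the 50 μM solution for the treatment, so which dose was applied is unclear. The labels do not say whether the 3 libraries of a group came from separate isolations or cultures, so the p-values measure the spread between these libraries, which may be technical.

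In this pathway a secreted Wnt ligand, or norrin, binds a frizzled receptor together with LRP5 or LRP6. The receptor complex then blocks the machinery that degrades β-catenin, which enters the nucleus and acts with LEF1 or a TCF factor on target genes. Brain endothelium needs this signal to grow into the neural tissue and to acquire and keep its barrier, and the ligands come largely from neural cells and glia. Among the first genes to respond are inhibitors of the same pathway, so their RNA is often read as a gauge of its activity.

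None of the 10 genes was called differentially expressed between Hcy and Veh, and of all genes tested only 0.486% were. Sox17 RNA stood higher in every Hcy library, by 1.22-fold, and Tcf7 RNA stood lower in every Hcy library, at 0.676 of the Veh mean. Groups also did not overlap for 20.1% of all genes tested. With edgeR on all 6 libraries, neither Sox17 nor Tcf7 passed once p-values were adjusted over all genes. Sox17 passed with DESeq2 and with edgeR when Veh replicate 3 was left out. The feedback genes gave no common direction. The receptor genes differed little between groups, and the sign of their difference turned when 1 Veh library was left out.

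Gene positions are printed as the table lists them, without a named build. They reach 282724300 on chromosome 1, past the end of that chromosome in mRatBN7.2, and so cannot be read as positions on that build. Libraries held between 14024997 and 16764584 counts, so that 3 counts, taken as the floor of detection, correspond to 0.178 to 0.215 CPM (counts scaled to the library size with TMM factors). Such limits cover counting error only. Of the 14603 genes tested with edgeR's quasi-likelihood test, 71 were called, with a Benjamini-Hochberg adjusted p no higher than 0.05 together with a log2 fold change of 1 or more in size. Veh replicate 3 stood apart from the other libraries. The second principal component, with 26.2% of the variance, placed it at 30.4 and the other Veh libraries at -16.0 and -19.0. Its deviation from the mean of the 6 libraries followed gene length, with a median log2 difference of 0.23 over 1529 genes of up to 1 kb and -0.15 over 2481 genes above 4 kb. The adjusted p alone was met by 2.34% of the genes tested with all libraries and by 6.67% without Veh replicate 3. Results that rest on this library are given with and without it.

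Markers were checked for the labelled cell type and for others that a brain isolation can carry over. The endothelial list was abundant, with a summed level of 9453 to 9879 CPM in Hcy and 7822 to 9038 CPM in Veh, groups that did not overlap. Of its 12 genes, 11 were matched and 10 tested, and 0 passed the adjusted p. Cldn5, which encodes the tight junction protein Claudin-5 of the barrier, had 0 counts in every library. The study measured Claudin-5 protein in rBMECs by Western blot, so these counts do not show that the cells lack it. Why the row held no reads was not tested. Smooth muscle markers summed to 674 to 702 CPM in Hcy and 1120 to 1348 CPM in Veh. Most of this sum was Tagln, with means of 582 CPM in Hcy and 1071 CPM in Veh. Of the 5 genes, 3 fell with an edgeR adjusted p of at most 0.05, namely Tagln, Acta2 and Cnn1. Des and Myh11, with group means of 0.457 to 1.23 CPM, had log2 fold changes of 0.55 and -0.04 and did not pass. The pericyte list summed to 4.66 to 7.19 CPM in Hcy and 3.50 to 4.64 CPM in Veh, and the astrocyte list, nearly all of it Gja1, which endothelium also expresses, to 113 to 116 CPM and 126 to 150 CPM, with Slc1a2 and Aqp4 at 0. Fibroblast markers lay at 35.7 to 57.8 CPM and 57.5 to 83.9 CPM, neuronal markers at 6.85 to 9.77 CPM and 5.22 to 7.30 CPM with Snap25 and Rbfox3 at 0, and oligodendrocyte markers at 10.6 to 12.2 CPM and 11.2 to 11.4 CPM. Microglia and leukocyte markers summed to 0.431 to 0.776 CPM in Hcy and 0.446 to 0.900 CPM in Veh, with P2ry12, Cx3cr1 and Ptprc at 0, and epithelial markers to 0.144 to 0.836 CPM and 0.356 to 0.692 CPM. The endothelial, smooth muscle, pericyte and astrocyte sums did not overlap between groups, and their part in any difference given below was not tested. In bulk RNA, fewer cells of a type and less RNA per cell cannot be told apart.

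Levels were compared between genes only per length, as CPM per kb of the deposited gene length. Adgra2 was the highest at 50.7 CPM per kb over the 6 libraries, and Sox17 followed at 50.2 CPM per kb. The library ranges of these 2 genes overlapped, 37.5 to 57.2 and 43.0 to 56.3 CPM per kb, so they cannot be ordered. Fzd4 stood at 32.9, Lrp5 at 17.6, Apcdd1 at 10.7, Lef1 at 9.04, Nkd1 at 7.13, Lrp6 at 5.81, Tcf7 at 2.16 and Axin2 at 0.769 CPM per kb, and from Sox17 downwards no range overlapped that of the next gene. The receptors and SOX17 thus lay above the feedback genes and the TCF factors in RNA per length, apart from Lrp6.

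**Figure D1:**
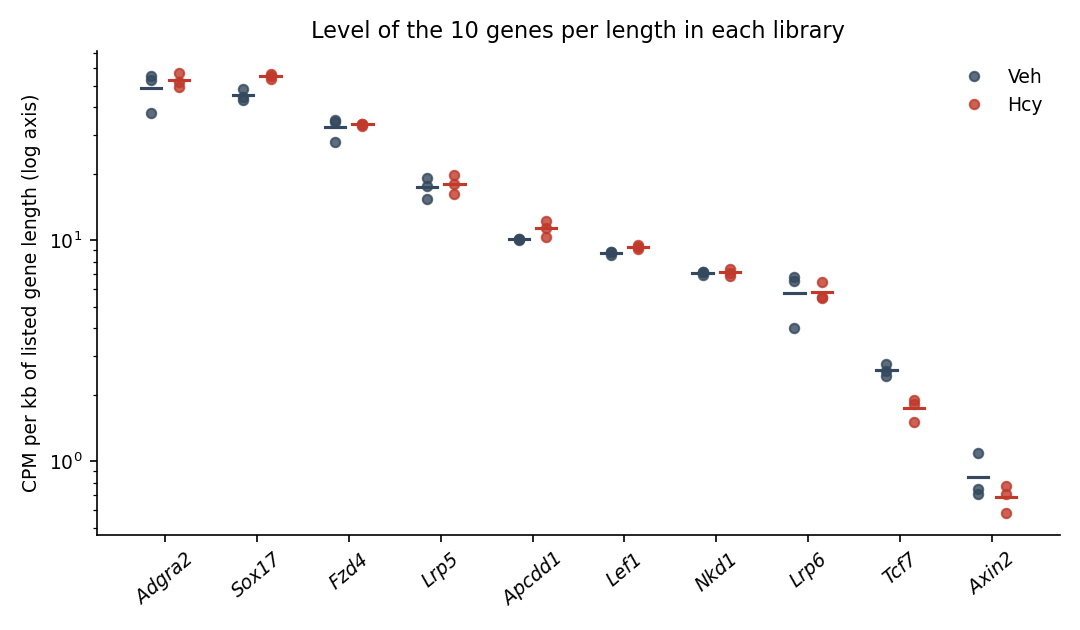
Each point is 1 library, Veh in dark blue and Hcy in red, short lines are group means, and the y axis gives CPM per kb of listed gene length on a log scale. The genes run from Adgra2 at 50.7 to Axin2 at 0.769 CPM per kb, and Veh and Hcy points part visibly for Tcf7 and Sox17.

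The receptor side was read first. Fzd4 encodes the frizzled receptor that carries norrin and Wnt signals in brain vessels, and the table lists it on chromosome 1 from 153589471 to 153598375. Its level was 230, 225 and 231 CPM in Hcy replicates 1, 2 and 3 and 240, 233 and 191 CPM in Veh replicates 1, 2 and 3. The Hcy libraries lay inside the Veh range, and Veh replicate 3 was the lowest of all. The log2 fold change was 0.05 (SE 0.09, 95% interval -0.16 to 0.25, edgeR adjusted p = 0.894), which spans 0.894 to 1.19 of the Veh level. Without Veh replicate 3 the log2 fold change was -0.05, with an interval of -0.17 to 0.07.

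Lrp5 and Lrp6 encode the paired co-receptors that bind the Wnt ligand beside frizzled. Lrp5, on chromosome 1 from 218816841 to 218920094, lay at 91.6, 99.7 and 82.2 CPM in Hcy and at 96.6, 89.3 and 78.1 CPM in Veh, and its groups overlapped. Its log2 fold change was 0.05 (SE 0.10, interval -0.18 to 0.28, edgeR adjusted p = 0.900). Lrp6, on chromosome 4 from 168194927 to 168323751, lay at 31.0, 36.4 and 31.2 CPM in Hcy and at 36.8, 38.5 and 22.6 CPM in Veh. Veh replicate 3 held the lowest Lrp6 level and the other Veh libraries the highest, so the Hcy libraries fell between them. Lrp6 had a log2 fold change of 0.01 (SE 0.18, interval -0.41 to 0.42, edgeR adjusted p = 0.990) with all libraries and -0.20 (interval -0.40 to 0.01, edgeR adjusted p = 0.253) without Veh replicate 3. Lrp5 took 75.5% ± 1.09 (SD, n = 3) of the summed Lrp5 and Lrp6 level per kb in Hcy and 75.3% ± 3.73 (SD, n = 3) in Veh.

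Adgra2 encodes GPR124, an adhesion receptor that works with the anchored protein RECK so that brain endothelium can respond to WNT7A and WNT7B. The table lists it on chromosome 16 from 69095936 to 69132584. It lay at 209, 229 and 197 CPM in Hcy and at 221, 213 and 151 CPM in Veh. The groups overlapped, and Veh replicate 3 was again the lowest library. Adgra2 had a log2 fold change of 0.12 (SE 0.14, interval -0.19 to 0.43, edgeR adjusted p = 0.789), and without Veh replicate 3 it was -0.04 (interval -0.19 to 0.12). Reck itself, chosen after its values were seen as the partner of Adgra2, had a log2 fold change of -0.09 (SE 0.12, edgeR adjusted p = 0.826). Its level in Veh replicate 3 was 0.740 of the mean of the other Veh libraries. The Hcy mean of Reck was 0.940 of the Veh mean with all libraries and 0.859 of it without Veh replicate 3.

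These receptor genes shared the same low library. The level in Veh replicate 3, divided by the mean of the other Veh libraries, was 0.599 for Lrp6, 0.693 for Adgra2, 0.807 for Fzd4 and 0.840 for Lrp5. For Axin2 the ratio was 0.775, and for Sox17, Lef1, Nkd1, Tcf7 and Apcdd1 it lay between 0.928 and 1.00. The 4 receptor genes are also the longest of the 10 in the table, with listed lengths of 6848 bases for Fzd4, 5634 for Lrp6, 5078 for Lrp5 and 4011 for Adgra2, and Axin2 comes next at 3989 bases. The part of gene length in their low Veh replicate 3 values was not tested.

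**Figure D2:**
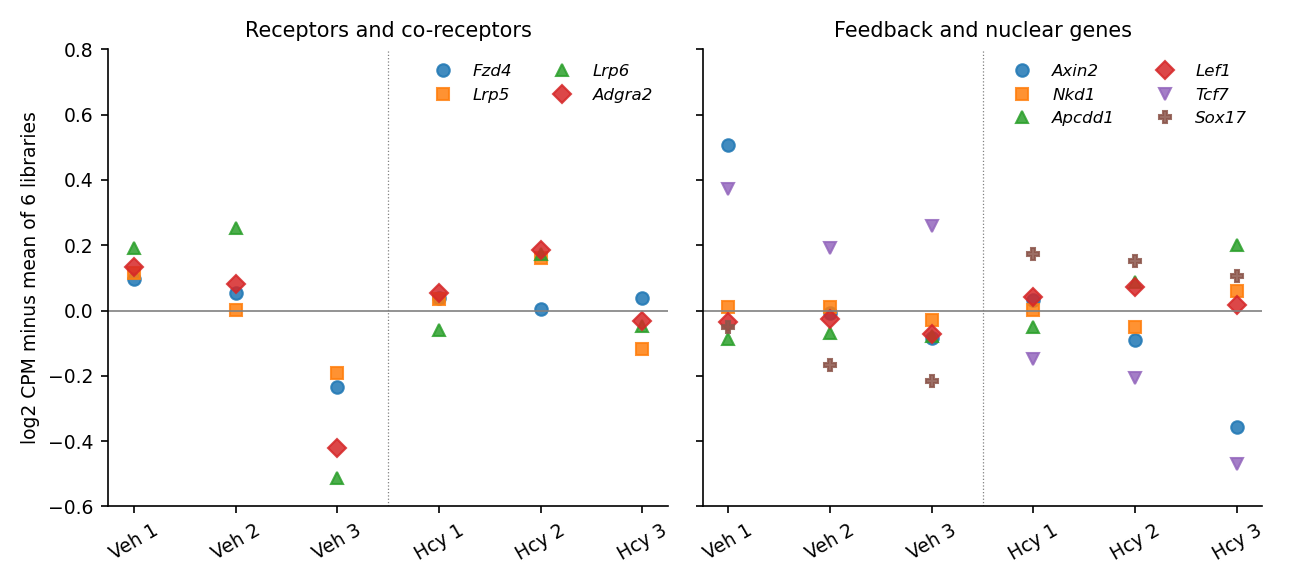
The y axis gives log2 CPM minus the gene's mean over the 6 libraries, the x axis the libraries, and each symbol is a gene, with receptor genes on the left and feedback and nuclear genes on the right. All 4 receptor genes lie below 0 in Veh replicate 3, down to -0.51 for Lrp6, while on the right Tcf7 lies above 0 in every Veh library and Sox17 above 0 in every Hcy library.

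The feedback genes were read as targets of the pathway. Axin2 encodes a scaffold of the complex that degrades β-catenin and is the most widely used target gene of the pathway. It is listed on chromosome 10 from 97212432 to 97239642. It was the scarcest of the 10 genes, with raw counts of 43, 42 and 39 for Hcy replicates and 73, 47 and 41 for Veh replicates, which correspond to 3.09, 2.82 and 2.33 CPM and to 4.33, 2.99 and 2.84 CPM. Veh replicate 1 stood well above all others, and the remaining libraries of both groups overlapped. Means were 2.75 ± 0.386 for Hcy and 3.39 ± 0.822 for Veh (CPM, SD, n = 3). Axin2 had a log2 fold change of -0.31 (SE 0.24, interval -0.86 to 0.24, edgeR adjusted p = 0.667), and it was -0.09 without Veh replicate 1 and -0.42 without Veh replicate 3. The interval runs from 0.549 to 1.18 of the Veh level.

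Nkd1 encodes naked cuticle 1, an inhibitor that binds dishevelled, and is listed on chromosome 19 from 19436333 to 19509087. It lay at 18.2, 17.6 and 19.0 CPM in Hcy and at 18.3, 18.4 and 17.9 CPM in Veh, and the 6 libraries were intermixed. Its log2 fold change was 0.01 (SE 0.10, interval -0.21 to 0.23, edgeR adjusted p = 0.987). With 1689 counts in all, this gene bounds a difference more tightly than Axin2 does, at between 0.863 and 1.17 of the Veh level.

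Apcdd1 encodes a membrane protein that binds Wnt and LRP and dampens the signal, and is listed on chromosome 18 from 58270410 to 58301002. It lay at 32.3, 35.5 and 38.4 CPM in Hcy and at 31.5, 31.9 and 31.7 CPM in Veh. Every Hcy library was above every Veh library, and the Hcy libraries were more spread out, with an SD of 3.06 CPM against 0.199 CPM in Veh. Apcdd1 had a log2 fold change of 0.16 (SE 0.09, interval -0.04 to 0.37, edgeR adjusted p = 0.500), which does not pass, and it was 0.10 without Hcy replicate 3 and 0.22 without Hcy replicate 1. The 3 feedback genes therefore had fitted differences of -0.31, 0.01 and 0.16 on the log2 scale, each with an interval that includes 0.

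Promoter sequence was examined for the letters CTTTGAT, the core that TCF and LEF proteins bind, and its reverse complement ATCAAAG. Windows of 300 bases, from 250 before to 50 after each gene start, were taken from RefSeq on build GRCr8, and 6 of the 10 genes had an entry (Axin2, Lef1, Tcf7, Apcdd1, Nkd1 and Fzd4). The motif stood in 3 of the 6, against 1216 of 33469 windows of the same length (3.63%). It began 132 bases before the start of Axin2, 141 bases before that of Nkd1 and 4 bases before that of Tcf7, where it runs across the start. The stretches around these matches are shown because they are the TCF-type letters that the described genes hold. They lie at chr10:94398593-94398719 on the plus strand, chr19:34722921-34723047 on the minus strand and chr10:36954266-36954294 on the minus strand. Each reads 5′ to 3′ in the direction of the gene, with CTTTGAT in capitals.
Axin2: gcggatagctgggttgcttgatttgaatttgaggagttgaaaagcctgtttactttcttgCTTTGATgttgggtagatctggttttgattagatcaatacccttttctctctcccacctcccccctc
Nkd1: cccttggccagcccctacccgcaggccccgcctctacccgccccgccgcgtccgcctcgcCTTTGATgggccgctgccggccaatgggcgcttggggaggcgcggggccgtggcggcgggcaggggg
Tcf7: gcccgcggtgcCTTTGATgttccgacccg
The shorter core CTTTGA (reverse complement TCAAAG), which is contained in CTTTGAT, stood in 5384 of the 33469 windows (16.1%) and once more in Axin2 and once in Apcdd1, at 214 bases before its start. Neither was found in these windows of Lef1 and Fzd4. A match is a run of letters and not a measured binding site. The genes with CTTTGAT had log2 fold changes of -0.31 for Axin2, 0.01 for Nkd1 and -0.57 for Tcf7. Among tested genes whose symbol had a window, 242 had CTTTGAT and a median log2 fold change of -0.02, with 3 (1.24%) past the edgeR adjusted p. Another 9693 lacked it, with a median of -0.01 and 259 (2.67%) past the adjusted p. Tested genes without a window were not scanned. A count of 3 is small, and the difference between these shares was not tested.

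Among the nuclear factors, Lef1 and Tcf7 encode the HMG-box proteins that bring β-catenin to target genes and are themselves targets. Lef1 is listed on chromosome 2 from 236233239 to 236345056. It lay at 24.0, 24.5 and 23.6 CPM in Hcy and at 22.7, 22.9 and 22.1 CPM in Veh. Every Hcy library was above every Veh library by a narrow margin, with means of 24.0 ± 0.472 and 22.6 ± 0.385 CPM (SD, n = 3). On the log2 scale the fold change was 0.09 (SE 0.09, interval -0.11 to 0.29, edgeR adjusted p = 0.741).

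Tcf7 is listed on chromosome 10 from 37617279 to 37645802. Its raw counts were 41, 42 and 39 for Hcy replicates and 72, 59 and 57 for Veh replicates, or 2.94, 2.82 and 2.33 CPM against 4.27, 3.76 and 3.95 CPM. All Hcy libraries lay below all Veh libraries, with means of 2.70 ± 0.326 and 3.99 ± 0.261 CPM (SD, n = 3). The log2 fold change was -0.57 (SE 0.20, interval -1.02 to -0.12), the largest in size among the 10 genes. The edgeR p was 0.0193 before adjustment and 0.233 after it, and DESeq2 gave an adjusted p of 0.400. Leaving out Veh replicate 3 gave -0.58 (edgeR adjusted p = 0.193). The groups did not overlap, but the gene did not pass.

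The 4 genes of the TCF and LEF family show the same difference as shares of their sum, which was computed after the values had been seen and carries no test. Of their summed level per kb, Tcf7 took 7.40% ± 0.924 in Hcy and 10.4% ± 0.358 in Veh, and Lef1 took 39.6% ± 0.978 in Hcy and 35.4% ± 1.71 in Veh (SD, n = 3). Tcf7l1 took 33.7% in Hcy and 33.4% in Veh, and Tcf7l2 took 19.3% and 20.8%. The library values of Tcf7 and of Lef1 did not overlap between groups, while those of Tcf7l1 and Tcf7l2 did. Lef1 and Tcf7l1 were thus the main members of the family in both groups.

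Sox17 encodes a SOXF transcription factor of endothelial cells that is linked to Wnt signalling in barrier formation and to arterial identity. The table lists it on chromosome 5 from 14890408 to 14895907. It lay at 131, 129 and 125 CPM in Hcy and at 112, 103 and 100 CPM in Veh. Every Hcy library was above every Veh library, and the gap between the groups was wider than the spread inside either, with means of 128 ± 3.12 and 105 ± 6.28 CPM (SD, n = 3). The log2 fold change was 0.29 (SE 0.07, interval 0.12 to 0.45), with an edgeR p of 0.00371 before and 0.0983 after adjustment. DESeq2 put the adjusted p at 0.0289 for a log2 fold change of 0.29, and edgeR without Veh replicate 3 at 0.0457 for 0.25. Over the 6 fits that each left out a library, the log2 fold change lay between 0.25 and 0.34.

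The endothelial marker sum was higher in Hcy as well, by a ratio of 1.13 between group means, and Sox17 was set against it. Sox17 amounted to 1.34%, 1.30% and 1.32% of that sum in Hcy and to 1.24%, 1.17% and 1.28% in Veh. These values still did not overlap, and their ratio was 1.07 where that of Sox17 alone was 1.22. This scaling was added after the data had been seen. The marker sum was 7822 CPM in Veh replicate 3 against 9038 and 8822 CPM in Veh replicates 1 and 2. Both ratios therefore depend on Veh replicate 3, which also had the highest Sox17 share in Veh, 1.28%. Leaving it out put the ratio of Sox17 alone at 1.19, and the scaled ratio was not computed. Vwf, the most abundant marker of the list, had means of 2934 CPM in Hcy and 2288 CPM in Veh. Tek, Egfl7 and Erg had log2 fold changes of -0.24, -0.08 and -0.05, and the other markers tested had positive ones. Within the SOXF family, Sox17 took 33.7% ± 1.25 of the summed level per kb in Hcy and 30.7% ± 0.544 in Veh (SD, n = 3). Sox7 and Sox18, also named after their values were seen, had log2 fold changes of 0.14 (SE 0.08, edgeR adjusted p = 0.528) and 0.06 (SE 0.09, edgeR adjusted p = 0.845).

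**Figure D3:**
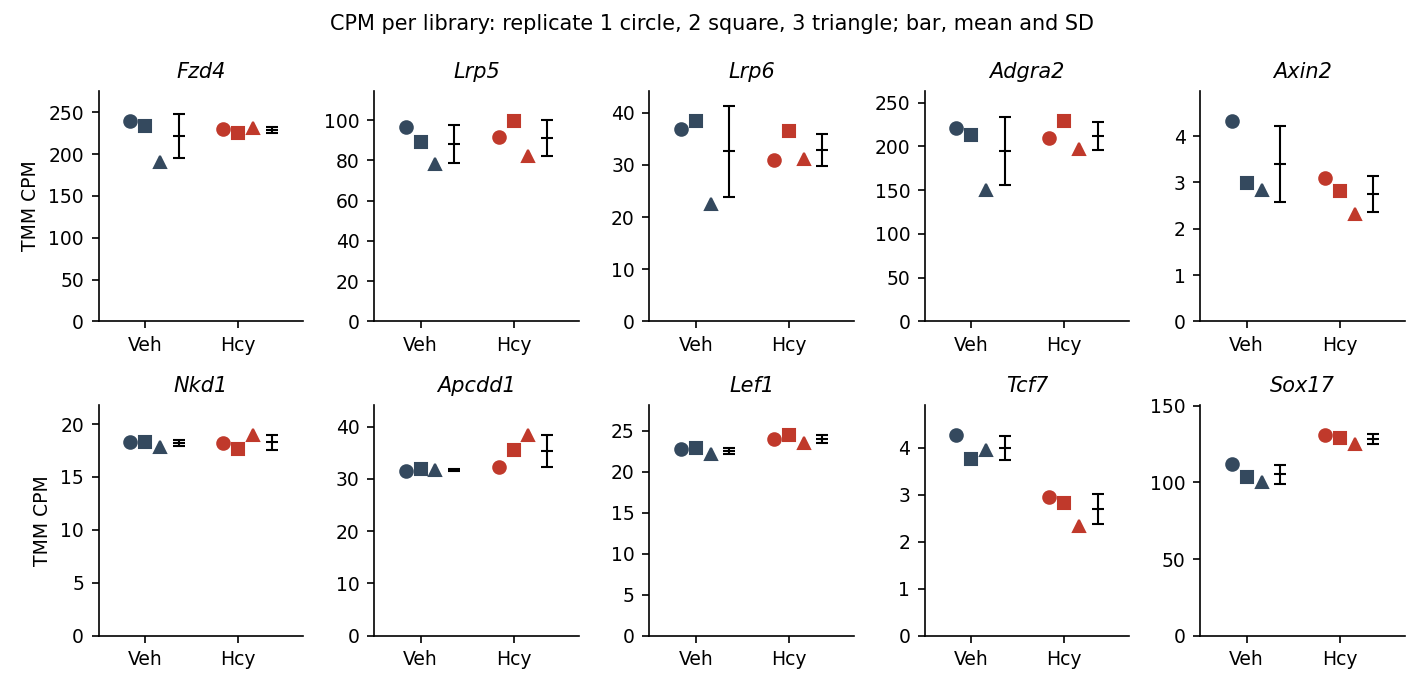
Panels give TMM-scaled CPM from 0 for each gene, with replicate 1 as a circle, 2 as a square and 3 as a triangle, Veh in dark blue and Hcy in red, and the bar beside each group showing mean and SD (n = 3). The groups part for Apcdd1, Lef1, Tcf7 and Sox17, and the triangle of Veh lies lowest for Fzd4, Lrp5, Lrp6 and Adgra2.

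Counted over the 10 genes, 0 were called by both thresholds, where 0.486% of all genes tested were called (0.253% higher and 0.233% lower). By the adjusted p alone the count was again 0 with edgeR, against 2.34% of all genes tested (1.32% higher and 1.01% lower), and 1 with DESeq2, namely Sox17, against 5.09% of the 12024 genes to which DESeq2 gave an adjusted p. At an unadjusted p of at most 0.05 the count was 2, Sox17 higher and Tcf7 lower, against 13.4% of all genes (7.44% higher and 5.95% lower). Groups did not overlap for 4 of the 10, against 20.1% of all genes tested, with 3 higher in Hcy and 1 lower. The fitted sign was positive for 8 genes and negative for 2 with all libraries, and positive for 3 and negative for 7 without Veh replicate 3. The median log2 fold change was 0.05, beside -0.02 over all genes tested, and it was -0.03 without Veh replicate 3. A count of this size over 10 genes is small, and the genes differ widely in depth, from 285 counts for Axin2 to 20892 for Fzd4.

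**Figure D4:**
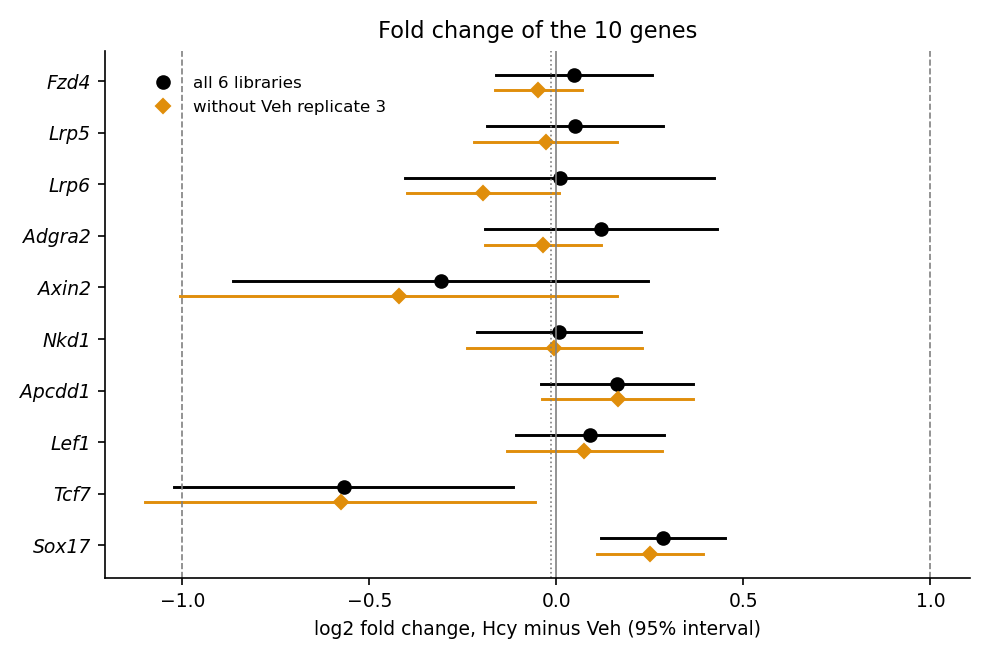
The x axis gives the log2 fold change of Hcy over Veh with its 95% interval from edgeR, in black for all 6 libraries and in orange without Veh replicate 3, with dashed lines at a log2 fold change of 1 in each direction and a dotted line at the median of all genes tested. Tcf7 at -0.57 and Sox17 at 0.29 have intervals that leave out 0 in both fits, and the 4 receptor genes move to the left of 0 in orange.

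The remaining genes of the pathway were read from lists of 120 symbols, of which 115 were matched. They filled 116 rows, of which 87 had at least 10 counts and were tested and 16 had no count in any library. With edgeR, 2 rose and 1 fell at an adjusted p of at most 0.05, 0 of the 87 passed both thresholds, and 4 higher and 7 lower had an unadjusted p of at most 0.05. Over all genes tested the shares were 2.34% by the adjusted p and, by the unadjusted p, 7.44% higher and 5.95% lower. DESeq2 put 6 of the 71 to which it gave an adjusted p past it, against 5.09% of all such genes, and they were Fzd6, Slc7a5, Lsr, Dkk3, Bsg and Slc2a1. The groups did not overlap for 17.2% of the 87, near the 20.1% of all genes, and their median log2 fold change was -0.04.

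Most ligand genes were at or near 0 counts. Of 26 ligand and secretion genes, 10 could be tested, 9 had 0 counts in every library, and 0 passed the edgeR adjusted p, with 0 also at the unadjusted p. Ndp, which encodes norrin, had 0 counts in all 6 libraries, which allows a level of up to 0.178 to 0.215 CPM in each. The most abundant gene of the list was Wls, the carrier that escorts Wnt proteins to the cell surface, at 21.0 CPM per kb. Its log2 fold change was 0.18 (SE 0.08, edgeR adjusted p = 0.377), and it also had the smallest p of its list. Wnt7b and Wnt7a, named after their values were seen, had 777 and 11 counts over the 6 libraries.

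Receptors other than the 4 described numbered 17, of which 13 were tested. Fzd6, a frizzled that is mostly tied to planar polarity, was the only one to pass, and had the highest mean of these, 61.4 CPM per kb, in a range that overlapped that of Tspan12. It lay at 292, 302 and 314 CPM in Hcy and at 227, 228 and 185 CPM in Veh. It rose by a log2 fold change of 0.51 (SE 0.09, edgeR adjusted p = 0.0250), and every Hcy library was above every Veh library. The log2 fold change was 0.41 without Veh replicate 3 (edgeR adjusted p = 0.00189), and the adjusted p was above 0.05 when any other single library was left out. Of the summed level per kb of the 10 frizzled genes, Fzd6 took 65.2% ± 0.728 in Hcy and 58.2% ± 0.519 in Veh, and Fzd4 took 30.3% ± 0.778 and 37.1% ± 0.345 (SD, n = 3). These shares, computed after the values had been seen, did not overlap between groups, although the level of Fzd4 itself did.

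Inhibitors outside the cell or in its membrane gave 8 tested genes of 17, and 0 passed the edgeR adjusted p, with 1 higher and 1 lower at the unadjusted p. Dkk3, a dickkopf family member, had the smallest p, with a log2 fold change of -0.51 (SE 0.13, edgeR adjusted p = 0.0850, and 0.0206 without Veh replicate 3, DESeq2 adjusted p = 0.0287). Kremen1, a dickkopf receptor, had the highest mean per length, in a range that overlapped that of Dkk4, with a log2 fold change of 0.04 (SE 0.09, edgeR adjusted p = 0.899). In the cytoplasm, 19 rows were tested and 0 passed the edgeR adjusted p, with 1 higher and 1 lower at the unadjusted p. Without Veh replicate 3, 4 rows had an edgeR adjusted p of at most 0.05, all lower in Hcy, against 6.67% of all genes in that fit, and they are named here because they passed it. Apc, a scaffold of the β-catenin destruction complex, then had a log2 fold change of -0.34, Gsk3b, its kinase, of -0.30, and Dvl3, a dishevelled gene, of -0.40, where all libraries gave -0.15, -0.17 and -0.26. The remaining row was 1 of the 2 listed under Tnks2, whose level rested on Veh replicate 1 alone. Nkd2, the paralogue of Nkd1, had the smallest p, at 0.31 (SE 0.10, edgeR adjusted p = 0.216) on the log2 scale. Ctnnb1, which encodes β-catenin itself, was the most abundant at 243 CPM per kb. It lay at 603, 624 and 615 CPM in Hcy and at 590, 564 and 509 CPM in Veh, so that the groups did not overlap, and its log2 fold change was 0.15 (SE 0.07, interval -0.02 to 0.31, edgeR adjusted p = 0.438), or 0.09 without Veh replicate 3. β-Catenin is regulated mainly through protein stability, which RNA counts do not measure.

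Other nuclear factors gave 17 tested genes and 0 past the edgeR adjusted p, with 0 also at the unadjusted p. Pygo2, a co-activator, had the smallest p, at -0.16 (SE 0.07, edgeR adjusted p = 0.390) on the log2 scale. Tle5, a small Groucho-type protein, was the most abundant at 306 CPM per kb, with a log2 fold change of -0.08 (SE 0.10, edgeR adjusted p = 0.817). Without Veh replicate 3 the log2 fold change of Tle5 was 0.04. General target genes outside the 10 gave 5 tested genes, all with a negative fitted value and 0 past the edgeR adjusted p, with 0 also at the unadjusted p. The list was led in level by Ccnd1, the gene of cyclin D1, at 561 CPM per kb and a log2 fold change of -0.04 (SE 0.06, edgeR adjusted p = 0.832), and by p-value by Myc, at -0.10 (SE 0.07, edgeR adjusted p = 0.620).

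Barrier genes of brain endothelium that lie downstream of, or beside, the pathway gave 16 tested genes of 19. Of the untested ones, Abcb1a and Foxf2 were not matched by symbol, and Cldn5 had 0 counts. Here 1 rose and 1 fell at the edgeR adjusted p with all libraries, and 1 rose and 3 fell with DESeq2 and with edgeR without Veh replicate 3, against 2.34%, 5.09% and 6.67% of all genes in these fits. Slc7a5, the large neutral amino acid carrier, lay at 174, 156 and 154 CPM in Hcy and at 126, 123 and 119 CPM in Veh, and rose by 0.40 on the log2 scale (SE 0.07, edgeR adjusted p = 0.0297). Lsr, which encodes a protein of the corners where 3 cells meet, lay at 14.9, 12.6 and 15.2 CPM in Hcy and at 24.9, 21.5 and 24.3 CPM in Veh, and fell by 0.73 on the log2 scale (SE 0.12, edgeR adjusted p = 0.0156). Both kept their direction in every fit, but Slc7a5 lost the adjusted p when any library except Veh replicate 3 was left out, and Lsr when any Hcy library or Veh replicate 1 was. Bsg, the most abundant barrier gene at 528 CPM per kb, encodes basigin and had a log2 fold change of -0.29 (SE 0.07, edgeR adjusted p = 0.0933, and 0.0315 without Veh replicate 3, DESeq2 adjusted p = 0.0193). Of the 16 genes, 1 was higher in every Hcy library and 6 were lower, against 10.8% and 9.27% of all genes tested. The 6 include the glucose carrier gene Slc2a1 at -0.32 (SE 0.07, edgeR adjusted p = 0.0536, and 0.0111 without Veh replicate 3, DESeq2 adjusted p = 0.00421) and the lipid carrier gene Mfsd2a at -0.44 (SE 0.19, edgeR adjusted p = 0.346), both named after their values were seen. The median over the 16 was -0.08.

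**Figure D5:**
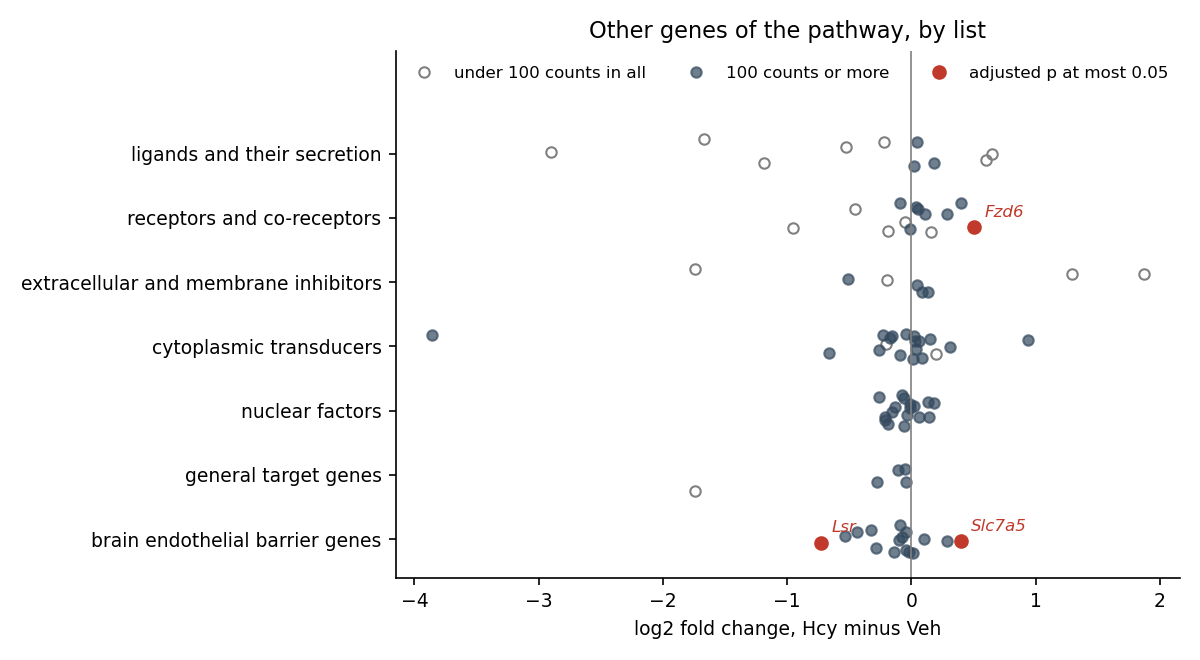
Each point is a tested gene of a list, without the 10 genes described, at its log2 fold change of Hcy over Veh from edgeR, with open circles for genes under 100 counts in all and red for an adjusted p of at most 0.05. Only Fzd6, Slc7a5 and Lsr are red, and the far points on either side are mostly open circles.

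Genes with a profile like that of Axin2 were sought by Pearson's r of log2 CPM over the 6 libraries among 12295 genes. The highest were Abhd4 at 0.988, Atf7ip at 0.972 and Abhd16a at 0.970. All 3 had their highest value in Veh replicate 1 and their lowest in Hcy replicate 3, as Axin2 did. With 6 libraries and this many genes, such values only describe which rows look alike.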

How the data were processed

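The authors deposited a table of unnormalized read counts for 6 rBMEC libraries, with gene lengths and positions in a table that names no build. The submitters' processing notes name fastp, HISAT2 2.2.1, StringTie 2.2.3, Cufflinks, featureCounts 2.0.6 and DESeq2 1.42.0, and the study's methods name mRatBN7.2, which the listed positions do not match. Whether counting used strand is not given in the sources used here, so reads of overlapping genes can be mixed. A second deposited table holds the authors' own comparison and was not used.

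The 14603 of 33566 genes whose counts summed to 10 or more were fitted with edgeR 4.0.16 (R 4.3.3, limma 3.58.1), using TMM factors, the quasi-likelihood test, condition as the only term and Benjamini-Hochberg adjustment over all genes tested. A gene was called where its adjusted p was no higher than 0.05 and its log2 fold change was 1 or more in size. Intervals are the fitted coefficient with its SE at 95%. The 12296 genes passing filterByExpr served the principal components and length checks. Counts of no 2 libraries of a group agreed within sampling noise (chi-square per gene 5.74 to 29.5).

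All 10 genes were named. Of 7 pathway lists, genes past the adjusted p, the smallest p and the highest level per kb in each list were named, others being marked. The 10 genes, the lists and the 9 marker lists were chosen with earlier results of these data known. Alternatives were DESeq2 1.42.0, other scalings, filters and prior count, a replicate block and leaving out each library. The test was tried on simulated counts, but no outcome of that trial is given and no result here rests on it. Libraries held 14024997 to 16764584 counts. Promoters came from RefSeq (GRCr8).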

Additional observations from a re-analysis of the deposited data

How the results depend on the processing

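Over 13 alternatives, 6 of which left out a library, none of the 10 genes passed both thresholds and 8 of 130 values changed sign. Without Veh replicate 3, Adgra2 turned to -0.036, Fzd4 to -0.049, Lrp5 to -0.029, Lrp6 to -0.20 and Nkd1 to -0.0054, and the nuclear factor gene Tle5 to 0.041. Without Hcy replicate 2, Lrp5 turned to -0.019 and Lrp6 to -0.071, and without Hcy replicate 3 Nkd1 turned to -0.022. With a library left out, the range was -0.036 to 0.22 for Adgra2, -0.049 to 0.11 for Fzd4, -0.029 to 0.12 for Lrp5, -0.20 to 0.14 for Lrp6, -0.022 to 0.034 for Nkd1 and -0.13 to 0.041 for Tle5. The cause was not tested. The number of the 10 genes past the adjusted p alone was 1 with DESeq2 and 0 to 1 with a library left out, in each case Sox17. Axin2 ranged from -0.42 to -0.09 with a library left out, lowest in size without Veh replicate 1.

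Over all genes, 109 were called with no count minimum and 39 to 112 with a library left out, against 71. By the adjusted p alone, 612 passed with DESeq2 and 80 to 957 with a library left out, against 341. Of the other pathway genes, 6 passed with DESeq2 and 0 to 10 with a library left out, against 3. The highest of these counts came without Veh replicate 3. Single pathway genes outside the 10 were put through the same alternatives after the data had been seen.

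Same-numbered libraries were not treated as paired in the main fit. Their deviations from group means correlated at 0.0237, 0.166 and 0.0581, a mean of 0.0828, against a mean of -0.0415 for other numbers. Not every library correlated best with its own number. From 3 libraries per group, these values cannot decide whether the cultures were paired. With a replicate block, 82 genes were called, 298 passed the adjusted p, and the median of the 10 genes was 0.05. The block changed no call among the 10, with Sox17 at an edgeR adjusted p of 0.135 and Tcf7 at 0.312. Axin2 and Tcf7 had 285 and 310 counts in all, with SEs of 0.24 and 0.20, and Lrp6 had 3046 counts and an SE of 0.18. The part of depth in these SEs was not tested.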
